A study of Mus musculus with 72 samples.

Results

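Antioxidant enzymes were followed in the blood of irradiated mice as a set of 10 genes: Sod1, Sod2, Cat, Gpx1, Prdx1, Prdx2, Gclc, Gclm, Hmox1 and Nqo1. The genes were picked by name, with earlier results of these data known, and they are 10 of the 16098 genes tested, out of 31131 gene names on the array. Each gene was represented by its brightest probe. That probe was well above background on 72 of 72 arrays for every one of the 10 genes and was saturated on 0 arrays, so all 10 passed the filter on dim probes.

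Superoxide, a by-product of respiration and of the NADPH oxidase of phagocytes, is turned into hydrogen peroxide by superoxide dismutases, and the peroxide is broken down by catalase, glutathione peroxidases and peroxiredoxins. Glutathione, the small thiol that feeds glutathione peroxidases, is made by glutamate-cysteine ligase, whose catalytic subunit is Gclc and whose modifier subunit is Gclm. Ionizing radiation produces reactive oxygen species when it splits water. Red cells carry oxygen and hemoglobin and are rich in catalase, Gpx1 and Prdx2, while liver is a tissue with high levels of many of these enzymes. The transcription factor Nrf2, encoded by Nfe2l2, binds antioxidant response elements (ARE) near genes such as Gclm, Gclc, Hmox1, Nqo1 and Prdx1.

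The study compared the blood response to neutrons and x-rays. Male C57BL/6 mice, irradiated at 8 to 10 weeks of age, received neutrons at 0.25 Gy or 1 Gy, x-rays at 1 Gy or 4 Gy, or were sham-irradiated as controls. The neutron beam carried some gamma rays, and the controls went through the holders of the neutron source with the beam off, so x-ray mice have no sham group of their own in these data. Blood was drawn from the heart 1, 3 or 7 days later into an RNA preservative, RNA was depleted of globin transcripts, and each mouse was hybridized to its own one-colour array. On day 1 there were 5 controls, 6 mice at 0.25 Gy neutrons, 6 at 1 Gy neutrons, 6 at 1 Gy x-rays and 5 at 4 Gy x-rays. On day 7 the numbers were 6, 5, 6, 5 and 6 in the same order. On day 3 there were 5 controls, 6 mice at 0.25 Gy neutrons and 5 at 1 Gy x-rays. All groups of a day share the same controls, so their comparisons are not independent of each other.

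Values are log2 intensities, background-corrected by the scanner software and centred on the median of the detected probes of the same array, so a level of 0 is that of the median detected probe and a difference of 1 is 2-fold relative to it. Levels of different genes are not compared, since probes differ in how strongly they bind. A difference is the irradiated mean less the control mean, and SE is its standard error. A gene is called when limma's moderated test, 2-sided, gives p below 0.001 together with a false discovery rate (FDR, by Benjamini and Hochberg) under 5% over all 16098 genes.

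Several facts of the arrays bear on what follows. The share of spots well above background ran from 40.2 to 67.3%, and median spot intensities ran from 9.52 to 16.9 in the 1 Gy neutron mice of day 7, below the 32.2 to 50.5 of that day's controls. The arrays were scanned on 7 days, and the x-ray groups of days 1, 3 and 7 share no scan day with their controls. The authors' table of normalized values disagrees with the array files: in 60 of its 72 columns the values follow the array of another sample, and in 21 of these a sample of another group, all 5 day 3 controls among them. The array files were used here under their own labels, and called genes are also given with the columns taken as named and without the 21 arrays. Hepatocyte transcripts, from a list of 30 liver genes such as Alb and Apoa1, were present in many blood samples. Their mean log2 level ran from -1.88 to 5.52 in the day 1 controls, where 25 to 30 of the 30 genes were well above background, and from -5.21 to -3.41 in the day 7 controls, where 8 to 17 were and 11 were not on any array. The levels of red cell precursor transcripts, a list of 21 genes, differed between groups as well and are given beside the results. None of the 10 genes is on these lists. The blood was measured in bulk, so fewer cells of a type and less RNA per cell cannot be told apart.

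The promoters were read from RefSeq (build GRCm38.p6), which gave 250 bases upstream of the start for 8 of the 10 genes. Gclc and Hmox1 were not matched. The core letters of the ARE, TGACNNNGC or GCNNNGTCA on the opposite strand, occur in 3 of the 8 and in 10.2% of all 32851 promoters of this length. They stand 134 to 126 bases before the start in Gclm, 133 to 125 in Prdx1 and 56 to 48 in Sod1, each time on the opposite strand. AGATAA or TTATCT, letters read by the erythroid GATA factors, occur in 0 of the 8 and in 9.99% of all promoters. A match is a run of letters and not a measured site. The 3 promoters, all on the + strand, are shown because they hold the core, and Gclm was also called in 4 of the 10 comparisons with controls. The capitals mark the core.
Gclm, chr3:122245307-122245556: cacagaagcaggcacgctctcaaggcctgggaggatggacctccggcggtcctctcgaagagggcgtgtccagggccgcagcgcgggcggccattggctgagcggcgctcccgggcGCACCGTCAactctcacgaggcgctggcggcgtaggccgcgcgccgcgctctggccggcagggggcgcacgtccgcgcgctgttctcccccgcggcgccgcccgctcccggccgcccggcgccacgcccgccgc
Prdx1, chr4:116685349-116685598: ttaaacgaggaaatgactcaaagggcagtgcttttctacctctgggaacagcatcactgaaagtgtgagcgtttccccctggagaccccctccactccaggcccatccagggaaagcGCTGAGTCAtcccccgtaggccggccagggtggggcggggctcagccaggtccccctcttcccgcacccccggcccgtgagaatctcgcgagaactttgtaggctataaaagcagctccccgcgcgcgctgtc
Sod1, chr16:90220512-90220761: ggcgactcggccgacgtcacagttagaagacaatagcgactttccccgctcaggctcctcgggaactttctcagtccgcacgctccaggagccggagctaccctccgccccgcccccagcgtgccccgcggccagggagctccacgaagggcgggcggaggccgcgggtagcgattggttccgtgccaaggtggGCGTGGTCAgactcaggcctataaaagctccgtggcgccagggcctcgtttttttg

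Of the 10 genes, 0 were called on day 1 after 0.25 Gy neutrons, where 0.00621% of all genes tested were called, 0 after 1 Gy neutrons, where 16.3% were, 0 after 1 Gy x-rays, where 6.45% were, and 3 after 4 Gy x-rays, where 29.4% were. With limma's p below 0.05 and no FDR limit, 0, 6, 6 and 8 of the 10 passed in that order, and the random variance test called the same numbers as limma in all 4. On day 3 the calls were 0 after 0.25 Gy neutrons, where 1.53% of all genes were called and 7 of the 10 had p below 0.05 without an FDR limit in limma and 0 were called by the random variance test, and 2 after 1 Gy x-rays, where 1.56% were called. On day 7 the calls numbered 1 for 0.25 Gy neutrons (0.547% of all genes), 7 for 1 Gy neutrons (36.2%), 4 for 1 Gy x-rays (3.74%) and 5 for 4 Gy x-rays (15.8%). The share called on day 1 after 4 Gy x-rays was close to that of all genes, and the shares on day 7 were above it. All 17 calls of day 7 were higher in irradiated mice, where 0.503, 18.4, 2.64 and 7.72% of all genes were called higher in the same order. The median log2 difference of the 10 genes was 2.22 after 1 Gy neutrons on day 7 against -0.05 over all genes, 0.72 against -0.03 after 1 Gy x-rays, 0.71 against -0.05 after 4 Gy x-rays and 0.42 against -0.02 after 0.25 Gy neutrons.

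**Figure D1:**
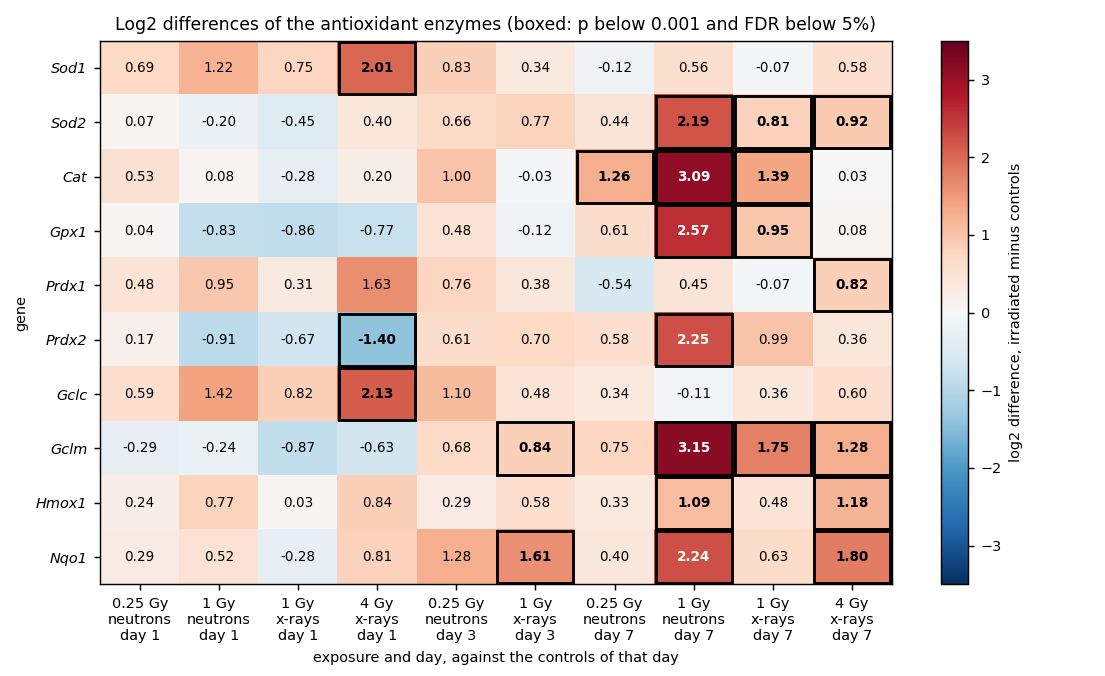
Log2 difference of each gene (rows) from the controls of the same day for each exposure (columns), coloured from blue (lower) to red (higher), with called genes boxed. The boxes of day 7 are all red, with Cat at 3.09 and Gclm at 3.15 after 1 Gy neutrons, while day 1 holds the blue box of Prdx2 at -1.40.

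The superoxide dismutases differed from each other. Sod2, the mitochondrial manganese enzyme (probe at chr17:13208074-13208133, build mm9, + strand), rose on day 7 after both x-ray doses and 1 Gy neutrons. Its level in the day 7 controls was 4.36 at the lowest, 4.77 at the median and 4.94 at the highest. After 1 Gy neutrons the same values were 6.14, 7.00 and 7.41, and after 4 Gy x-rays they were 5.28, 5.62 and 6.01. The 5 mice at 1 Gy x-rays were at 5.93, 5.46, 5.23, 5.74 and 5.22. Every mouse of these 3 groups lay above every control. The log2 difference was 2.19 (SE 0.21, 4.58-fold, adjusted p = 2.79e-06) after 1 Gy neutrons, 0.92 (SE 0.15, 1.89-fold, adjusted p = 0.000628) after 4 Gy x-rays and 0.81 (SE 0.17, 1.75-fold, adjusted p = 0.0178) after 1 Gy x-rays. The last of these calls was lost in 5 of 11 fits that each left out 1 mouse, and the value was -0.21 under spike-in centring. On day 1 Sod2 was called in 0 of the 4 groups, with differences from -0.45 after 1 Gy x-rays to 0.40 after 4 Gy x-rays.

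Sod1, the cytosolic copper-zinc enzyme (probe at chr16:90226509-90226568, build mm9, + strand), was called only on day 1 after 4 Gy x-rays. The 5 irradiated mice were at 7.72, 8.16, 8.12, 7.02 and 7.10, and the 5 controls at 5.38, 5.50, 5.77, 6.26 and 5.18. The groups did not overlap, and the log2 difference was 2.01 (SE 0.28, 4.02-fold, adjusted p = 0.00022). The difference was 1.22 (SE 0.33, adjusted p = 0.0121) after 1 Gy neutrons and 0.75 (SE 0.24, adjusted p = 0.0484) after 1 Gy x-rays on that day, neither called because p was above 0.001. In day 7 controls Sod1 lay between 5.32 and 5.71, and the group means of day 7 ran from 5.37 after 0.25 Gy neutrons to 6.07 after 4 Gy x-rays, with 0 called. The effect of 4 Gy x-rays was smaller on day 7 than on day 1 by 1.42 on the log2 scale (difference of differences -1.42, SE 0.31, adjusted p = 0.00135).

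**Figure D2:**
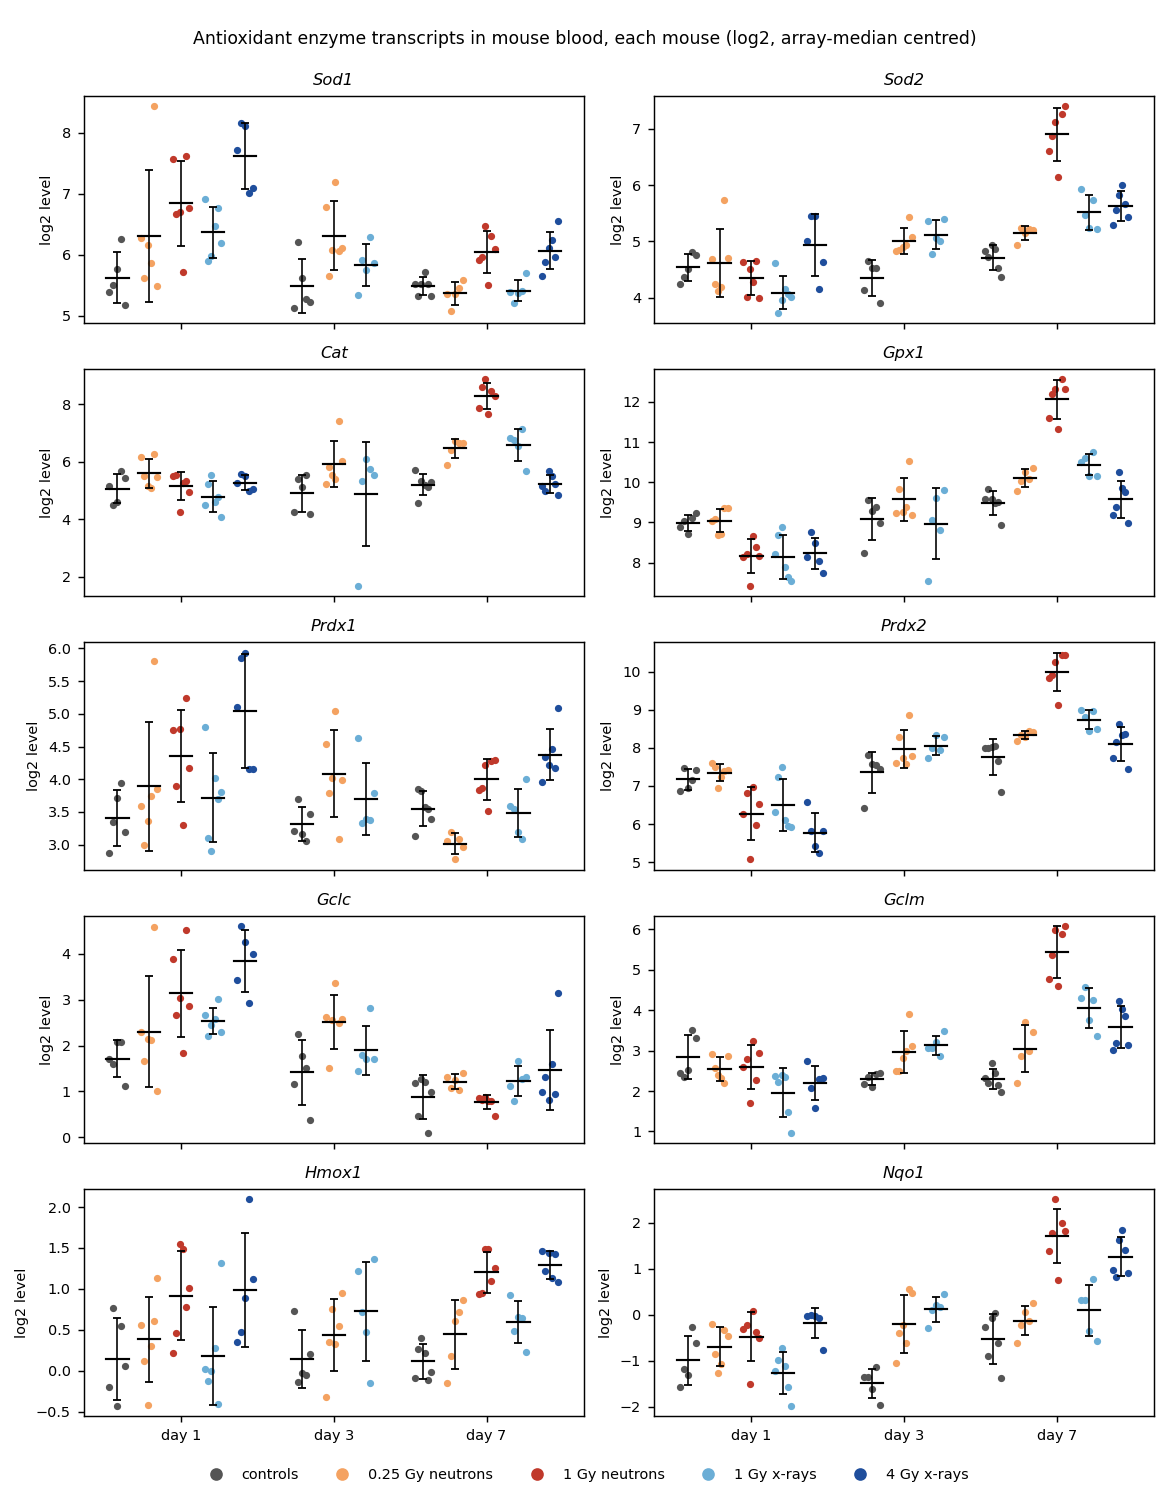
Log2 level of each gene (panels) in every mouse (points) by day and exposure, with each group's mean (horizontal bar) ± SD (vertical bar). The 1 Gy neutron mice of day 7 stand above all controls of that day for Sod2, Cat, Gpx1, Prdx2, Gclm, Hmox1 and Nqo1, and the 4 Gy x-ray mice of day 1 stand above the controls for Sod1, Prdx1 and Gclc and below them for Prdx2.

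The peroxide-removing enzymes Cat, Gpx1 and Prdx2 had the same order of group means on day 7, rising from controls through 4 Gy x-rays, 0.25 Gy neutrons and 1 Gy x-rays to 1 Gy neutrons. Cat encodes catalase (probe at chr2:103294487-103294546, build mm9, - strand). Its day 7 controls were at 4.57, 5.25 and 5.71 (lowest, median, highest) and the 1 Gy neutron mice at 7.68, 8.37 and 8.87. The groups were far apart, with a log2 difference of 3.09 (SE 0.23, 8.53-fold, adjusted p = 6.18e-07). The 0.25 Gy neutron mice, at 5.91, 6.42, 6.73, 6.65 and 6.64, also lay above all controls, and Cat was the only one of the 10 genes called there (1.26, SE 0.20, 2.40-fold, adjusted p = 0.046). The 1 Gy x-ray mice, at 6.84, 6.76, 6.54, 7.15 and 5.69, overlapped the controls by the last mouse, and the difference was called (1.39, SE 0.26, 2.62-fold, adjusted p = 0.0114). After 4 Gy x-rays Cat was at 4.84, 5.19 and 5.68, inside the range of the controls, with a difference of 0.03 (SE 0.19). Another Cat probe, not placed on the genome by the files, gave differences of 3.15 for 1 Gy neutrons and 1.59 for 1 Gy x-rays, both called, and of 0.93 for 0.25 Gy neutrons and 0.75 for 4 Gy x-rays, neither called.

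Gpx1, the main glutathione peroxidase of red cells (probe at chr9:108242276-108242335, build mm9, + strand), was at 8.95, 9.53 and 9.84 in the day 7 controls and at 11.33, 12.26 and 12.56 after 1 Gy neutrons. The groups did not overlap (2.57, SE 0.22, 5.95-fold, adjusted p = 1.46e-06). The 1 Gy x-ray mice, at 10.51, 10.60, 10.16, 10.74 and 10.16, lay above every control too (0.95, SE 0.17, 1.93-fold, adjusted p = 0.0101). After 4 Gy x-rays the difference was 0.08 (SE 0.21). Day 1 went the other way without a call. The differences of Gpx1 on that day were -0.83 (SE 0.20, adjusted p = 0.00805) after 1 Gy neutrons, with every irradiated mouse below every control, -0.86 (SE 0.24) after 1 Gy x-rays and -0.77 (SE 0.21) after 4 Gy x-rays, all with p between 0.00156 and 0.00433.

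Prdx2, the most abundant peroxiredoxin of red cells (probe at chr8:87498153-87498212, build mm9, + strand), fell on day 1 and rose on day 7 in different groups. On day 1 after 4 Gy x-rays the mice were at 6.58, 5.82, 5.43, 5.24 and 5.82, and the controls at 6.87, 7.48, 6.95, 7.16 and 7.43. Every irradiated mouse was below every control, and the log2 difference was -1.40 (SE 0.25, 2.64-fold lower, adjusted p = 0.000789). On day 7 the controls were at 6.83, 8.0 and 8.04, and the 1 Gy neutron mice at 9.13, 10.09 and 10.45, again without overlap (2.25, SE 0.26, 4.74-fold, adjusted p = 1.42e-05). The 1 Gy x-ray mice of day 7, at 8.99, 8.81, 8.44, 8.97 and 8.51, lay above every control with a difference of 0.99 (SE 0.23, adjusted p = 0.0274), just short of a call. Prdx1, a cytosolic peroxiredoxin found in most cells (probe at chr4:116371818-116371877, build mm9, + strand), behaved differently. It rose on day 7 after 4 Gy x-rays, from 3.13, 3.56 and 3.84 in the controls to 3.96, 4.28 and 5.09. Those groups did not overlap (0.82, SE 0.19, 1.77-fold, adjusted p = 0.00557), and the call was lost in 8 of 12 fits that each left out 1 mouse. On day 1 after 4 Gy x-rays the mice were at 5.11, 5.85, 5.94, 4.15 and 4.15 and the controls at 2.87, 3.34, 3.71, 3.94 and 3.19. These did not overlap either, and the difference of 1.63 (SE 0.38, adjusted p = 0.00387) was just short of a call, while another Prdx1 probe (chr4:116372422-116372481) was called there at 2.28 (SE 0.36, adjusted p = 0.000403). That other probe was not called on day 7 after 4 Gy x-rays, at 1.08 (SE 0.27, adjusted p = 0.00897).

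The subunits of glutamate-cysteine ligase moved apart. Gclm, the modifier subunit (its probe has no coordinates in the files), rose in 4 comparisons. In the day 7 controls it was at 1.97, 2.25 and 2.70, and after 1 Gy neutrons at 4.60, 5.62 and 6.08. Every irradiated mouse was above every control (3.15, SE 0.26, 8.88-fold, adjusted p = 1.24e-06), the largest difference among the 10 genes in the 10 comparisons with controls. On that day the 1 Gy x-ray group stood at 4.30, 4.57, 3.76, 4.26 and 3.36 (1.75, SE 0.22, 3.37-fold, adjusted p = 0.00192), and the 4 Gy x-ray mice at 3.02, 3.53 and 4.22 (1.28, SE 0.22, 2.43-fold, adjusted p = 0.00104). Neither group overlapped the controls. On day 3 the 1 Gy x-ray mice were at 3.06, 3.05, 3.20, 2.86 and 3.48 and the controls at 2.17, 2.34, 2.09, 2.41 and 2.44, without overlap (0.84, SE 0.16, 1.79-fold, adjusted p = 0.0421). On day 1 Gclm was called in 0 of the 4 groups, and its differences ran from -0.87 after 1 Gy x-rays to -0.24 after 1 Gy neutrons.

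Gclc, the catalytic subunit (probe at chr9:77641296-77641355, build mm9, + strand), rose only on day 1 after 4 Gy x-rays. The 5 mice were at 3.44, 4.61, 4.25, 2.92 and 4.00, and the 5 controls at 1.71, 1.59, 2.08, 2.08 and 1.11. The groups did not overlap (2.13, SE 0.32, 4.38-fold, adjusted p = 0.000287). After 1 Gy neutrons on that day the difference was 1.42 (SE 0.41, adjusted p = 0.0172), and after 1 Gy x-rays 0.82 (SE 0.20, adjusted p = 0.0189) with every irradiated mouse above the controls. Neither was called. On day 7 after 1 Gy neutrons, where Gclm had its largest difference, Gclc was at 0.47, 0.80 and 0.87 against 0.10, 1.09 and 1.28 in the controls, a difference of -0.11 (SE 0.20).

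Nqo1, a quinone reductase, and Hmox1, which breaks down heme, are inducible enzymes that Nrf2 can switch on. Nqo1 (probe at chr8:109912440-109912499, build mm9, - strand) was at -1.37, -0.45 and 0.04 in the day 7 controls, at 0.77, 1.80 and 2.52 after 1 Gy neutrons and at 0.82, 1.19 and 1.84 after 4 Gy x-rays. Neither irradiated group overlapped the controls, with differences of 2.24 (SE 0.30, 4.74-fold, adjusted p = 4.19e-05) and 1.80 (SE 0.26, 3.47-fold, adjusted p = 0.000302). After 1 Gy x-rays the difference was 0.63 (SE 0.31, adjusted p = 0.217). On day 3 after 1 Gy x-rays the mice were at -0.30, 0.10, 0.20, 0.16 and 0.45 and the controls at -1.35, -1.37, -1.61, -1.14 and -1.97, without overlap (1.61, SE 0.20, 3.05-fold, adjusted p = 0.0256). After 0.25 Gy neutrons on that day the difference was 1.28 (SE 0.29) with every irradiated mouse above the controls, and it missed the FDR limit (adjusted p = 0.0509).

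Hmox1 (probe at chr8:77624207-77624266, build mm9, + strand) was at -0.11, 0.10 and 0.40 in the day 7 controls. It was at 0.93, 1.17 and 1.49 after 1 Gy neutrons and at 1.09, 1.32 and 1.46 after 4 Gy x-rays. Both groups lay above every control, by 1.09 (SE 0.15, 2.13-fold, adjusted p = 5.11e-05) and 1.18 (SE 0.13, 2.27-fold, adjusted p = 3.24e-05). Another Hmox1 probe (chr8:77620797-77620856) gave 1.18 (SE 0.35) and 0.48 (SE 0.22) there and was called in neither. Whether a probe also binds the RNA of a near-identical gene copy was not tested for any of the 10 genes.

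The change between days was tested by subtracting an exposure's effect on day 1 from its effect on day 7. After 1 Gy neutrons 6 of the 10 genes differed between the days, where 24.1% of all genes did. Gpx1 had the largest value at 3.41 (SE 0.31, adjusted p = 4.94e-08), followed by Gclm at 3.39 (SE 0.41), Prdx2 at 3.15 (SE 0.41), Cat at 3.02 (SE 0.37), Sod2 at 2.39 (SE 0.28) and Nqo1 at 1.73 (SE 0.44). That of Nqo1 was lost in 14 of 23 fits that each left out 1 mouse and turned to -0.65 under spike-in centring. After 1 Gy x-rays 5 genes differed, where 7.19% of all genes did: Gclm at 2.63 (SE 0.40), Gpx1 at 1.81 (SE 0.31), Cat at 1.67 (SE 0.40), Prdx2 at 1.66 (SE 0.39) and Sod2 at 1.26 (SE 0.23). After 4 Gy x-rays 3 did, where 19.8% of all genes did: Gclm at 1.92 (SE 0.37), Prdx2 at 1.76 (SE 0.36) and Sod1, whose value was negative. After 0.25 Gy neutrons 0 of 10 differed by limma, where 0.752% of all genes did, and 3 had an unadjusted p below 0.05. The unirradiated controls themselves showed 0 called members between days: day 7 minus day 1 (4.39% of all genes called, 4 members with p below 0.05 by limma), day 3 minus day 1 (0% called, 1 member) and day 7 minus day 3 (2.25% called, 1 member).

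Radiation type was compared directly within a day. On day 1, 1 Gy neutrons differed from 1 Gy x-rays in 0 of the 10 genes by limma (9.62% of all genes called, 2 members with unadjusted p below 0.05) and from 4 Gy x-rays in 0 (0.0311% of all genes called, 2 members). On day 7, 6 genes were higher after 1 Gy neutrons than after the same dose of x-rays, where 20% of all genes were called. The log2 differences were 1.70 for Cat (SE 0.28), 1.63 for Gpx1 (SE 0.23), 1.61 for Nqo1 (SE 0.32), 1.40 for Gclm (SE 0.32), 1.38 for Sod2 (SE 0.24) and 1.26 for Prdx2 (SE 0.24). Of these, Nqo1 alone had overlapping groups. Quantile normalization called 1 of these 6, Nqo1 at 1.54 (SE 0.30), and spike-in centring 0, with values of 0.18 to 0.63. With normexp 0 of the 6 were called, and Sod2 at -0.089, Gpx1 at -0.066, Prdx2 at -0.41 and Gclm at -0.18 turned direction. The call of Gclm was lost in 8 of 11 fits that each left out 1 mouse. Against 4 Gy x-rays 5 genes were higher after 1 Gy neutrons, where 37.3% of all genes were called: Cat by 3.07 (SE 0.22), Gpx1 by 2.49 (SE 0.25), Prdx2 by 1.89 (SE 0.26), Gclm by 1.87 (SE 0.30) and Sod2 by 1.27 (SE 0.21). Under quantile normalization Cat and Gclm were still called, at 1.71 and 1.12, and Gpx1 and Prdx2 turned to -0.12 each. Under spike-in centring 0 of these 5 were called, with Sod2 at -1.05, Gclm at -0.46 and Prdx2 at -0.43, while the other 5 of the 10 genes were called lower after neutrons, Nqo1 among them at -1.87. Normexp called 0 of the 10, of which Cat at 1.71 had an adjusted p of 0.033 by limma, with an unadjusted p below 0.05 for 5. Under median centring Nqo1 and Hmox1 were not called against 4 Gy x-rays, with differences of 0.45 (SE 0.27) and -0.09 (SE 0.14).

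Red cell precursor transcripts, among them Alas2, Slc4a1 and Epb42, moved with the members. All 21 genes of that list were measured. Their mean log2 level on day 7 was 2.29 to 3.05 in the controls, 2.86 to 3.62 after 0.25 Gy neutrons, 4.44 to 5.48 after 1 Gy neutrons, 3.43 to 4.29 after 1 Gy x-rays and 3.20 to 4.29 after 4 Gy x-rays. The 3 last groups lay above every control (exact permutation test over mice, 2-sided, p = 0.00216, the smallest this design gives, adjusted p = 0.0194 over 90 comparisons of marker lists), with 20 to 21 of the 21 genes well above background on the control arrays and 20 on the 1 Gy neutron arrays. On day 1 the level was 2.26 to 3.15 in the controls and -0.30 to 1.25 after 4 Gy x-rays, below every control (exact permutation test, p = 0.00794, the smallest this design gives, adjusted p = 0.0298).

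Markers of white cells differed in the same groups. After 1 Gy neutrons on day 7 the neutrophil list was at 2.63 to 3.56 against 1.24 to 1.98 in the controls, with 5 of 10 tested genes higher and 0 lower, and the B cell list was at 0.20 to 0.75 against 2.11 to 2.41, with 8 of 10 lower and 0 higher (exact permutation test over mice, adjusted p = 0.0194 for each list). Of all genes tested, 36.2% were called there, 18.4% as higher. After 4 Gy x-rays on that day the neutrophil list was at 1.97 to 3.25, with 4 of 10 genes higher (adjusted p = 0.0298 by the same exact test), and the B cell list at -0.80 to -0.20, with 10 of 10 lower (adjusted p = 0.0194). The NK cell list was at 1.70 to 2.66 against 1.25 to 2.19 in the controls, with 5 of 8 genes higher and 0 lower (exact permutation test, adjusted p = 0.0428). In this group 15.8% of all genes were called, 7.72% as higher. On day 1 after 4 Gy x-rays the B cell list was at -2.25 to -1.20 against 2.06 to 2.80 in the controls, with 10 of 10 genes lower, and the T cell list at 0.26 to 1.69 against 2.36 to 3.02, with 8 of 12 lower and 1 higher (exact permutation test, adjusted p = 0.0298 for each list). Of all genes, 29.4% were called in that group. The part of these cells in the differences of the members was not tested.

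Within groups, after each group's mean was removed, 5 members rose with the red cell list across the 72 mice, 3 ran against it and 2 showed little relation. Pearson's r was 0.828 for Gclm, 0.756 for Prdx2, 0.714 for Nqo1, 0.607 for Gpx1 and 0.489 for Cat, with Spearman's rho of 0.855, 0.744, 0.747, 0.616 and 0.537. Each had a permutation p of 1e-05 for both measures, the smallest that 100000 permutations can give, and an adjusted p of 2.5e-05 over 20 relations. Without the 2 mice farthest from the median of the list, r was 0.82, 0.749, 0.748, 0.641 and 0.536, and within group and scan day, over 66 mice, it was 0.835, 0.718, 0.68, 0.568 and 0.416. Prdx1, Gclc and Sod1 had negative values, with r of -0.507, -0.454 and -0.329 (permutation p = 0.00028, 5e-04 and 0.018, adjusted p = 0.00062, 0.001 and 0.03) and rho of -0.406, -0.398 and -0.211 (permutation p = 0.0028, 0.0017 and 0.12, adjusted p = 0.0051, 0.0038 and 0.14). Without the 2 farthest mice their r was -0.44, -0.403 and -0.244, and within group and scan day -0.453, -0.463 and -0.275. Sod2 and Hmox1 showed little relation (r = 0.073, permutation p = 0.6, rho = 0.176, permutation p = 0.19, and r = 0.216, permutation p = 0.14, rho = 0.232, permutation p = 0.084). The mice share array scaling, so a member and a list on the same array are not free of each other. The part of red cell RNA in the rise of the members was not tested apart from the fit with the list as a covariate: after 1 Gy neutrons on day 7 the list level correlated with the group at 0.96 and 0 of the 7 calls were kept, with Cat at 1.49 (SE 0.69), Hmox1 at 0.87 (SE 0.54), Gpx1 at 0.37 (SE 0.47), Gclm at 0.26 (SE 0.43), Sod2 at 0.04 (SE 0.40), Prdx2 at -0.49 (SE 0.52) and Nqo1 at -1.0 (SE 0.54). With list and group so closely tied the SE widens, for Cat from 0.23 without the list. The share of all genes called in this fit is not given here, so the lost calls are not a result about the members alone.

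**Figure D3:**
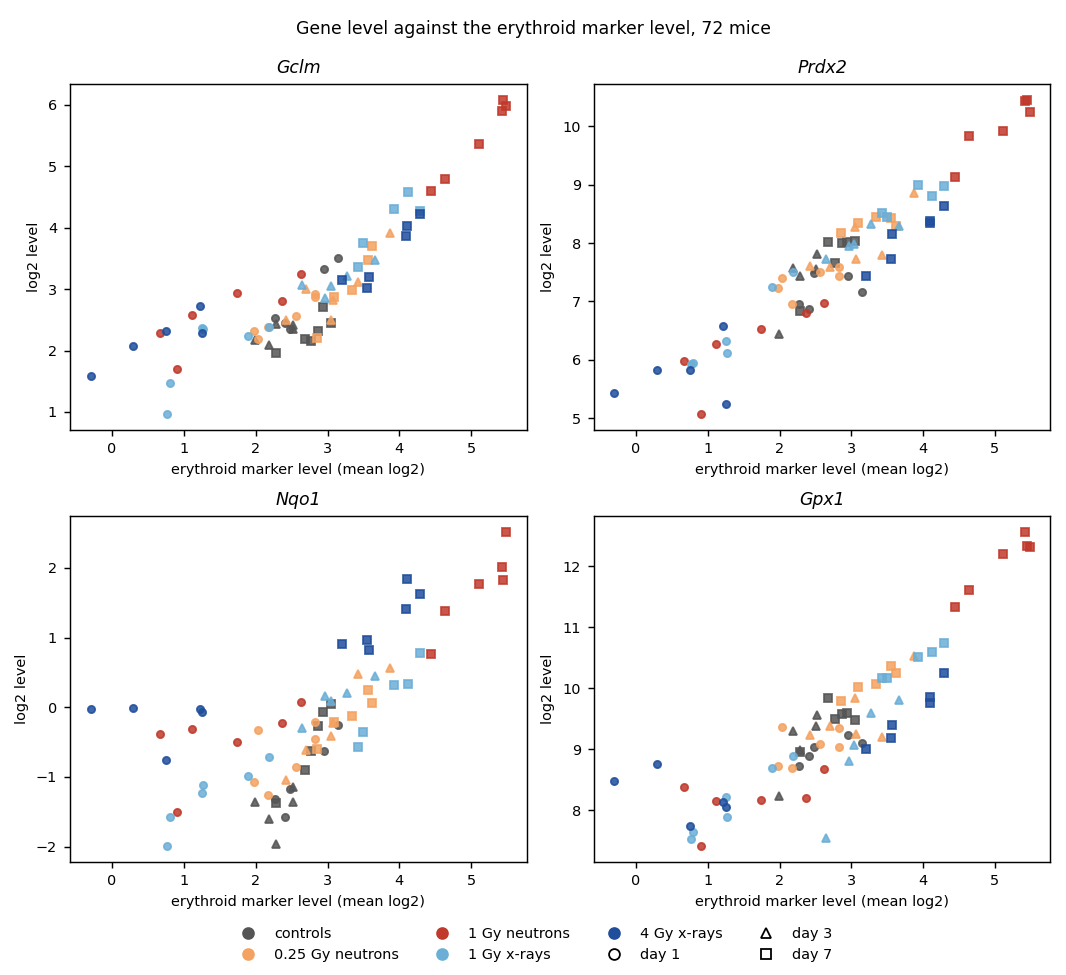
Log2 level of Gclm, Prdx2, Nqo1 and Gpx1 (vertical axes) against the mean log2 level of 21 red cell precursor genes (horizontal axes) in the 72 mice, coloured by exposure and shaped by day. The 1 Gy neutron mice of day 7 stand at the upper right of every panel, at list levels of 4.44 to 5.48, and the 4 Gy x-ray mice of day 1 stand at the left, at -0.30 to 1.25.

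Liver transcripts moved with other members. On day 1 the hepatocyte level was 6.49 to 7.81 after 4 Gy x-rays, above every control (exact permutation test, 2-sided, p = 0.00794, the smallest this design gives, adjusted p = 0.0298), and all 30 genes were well above background in each of those mice. Within groups, Gclc, Sod1 and Prdx1 followed this list across the 72 mice, with r of 0.628, 0.577 and 0.508 and rho of 0.603, 0.575 and 0.501 (permutation p = 1e-05 for each, adjusted p = 2.5e-05). Without the 2 farthest mice r was 0.549, 0.526 and 0.446, and within group and scan day 0.645, 0.581 and 0.489. Other members ran against the list. Hmox1 and Gclm did so by both measures, with r of -0.304 and -0.298 (permutation p = 0.0044 and 0.02, adjusted p = 0.008 and 0.031) and rho of -0.323 and -0.353 (permutation p = 0.0068 and 0.0059, adjusted p = 0.01 and 0.0098). Prdx2, Gpx1 and Nqo1 did so by rho alone, at -0.365, -0.301 and -0.268 (permutation p = 0.0028, 0.019 and 0.036, adjusted p = 0.0051, 0.027 and 0.048), with r of -0.262, -0.229 and -0.22 (permutation p = 0.04, 0.074 and 0.082, adjusted p = 0.057, 0.099 and 0.1). Without the 2 farthest mice r was -0.265 for Hmox1, -0.235 for Gclm, -0.169 for Prdx2, -0.156 for Gpx1 and -0.163 for Nqo1, and within group and scan day it was -0.352, -0.255, -0.193, -0.156 and -0.149. For Sod2 and Cat r was 0.186 (permutation p = 0.13) and -0.115 (permutation p = 0.34), and rho was 0.169 (permutation p = 0.18) and -0.114 (permutation p = 0.38). The mouse of the 0.25 Gy neutron group of day 1 with the highest hepatocyte level, 8.07, was also the highest of its group for Sod1 at 8.44, Gclc at 4.58 and Prdx1 at 5.81. Tissue macrophage transcripts, 10 genes such as Marco and C1qa, were also higher on day 1 after 4 Gy x-rays, at 0.68 to 3.48 against -2.03 to -0.28 in the controls. With the hepatocyte level as a covariate the differences of that group were 1.41 for Sod1 (SE 0.39), 1.49 for Gclc (SE 0.44) and -1.08 for Prdx2 (SE 0.38), with the macrophage level 1.46 (SE 0.65), 1.19 (SE 0.68) and -0.76 (SE 0.55), and with the red cell level 1.30 (SE 0.63), 0.78 (SE 0.60) and -0.84 (SE 0.56). None of the 3 genes was called in any of these fits. The part of each list in the day 1 differences was not tested further.

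**Figure D4:**
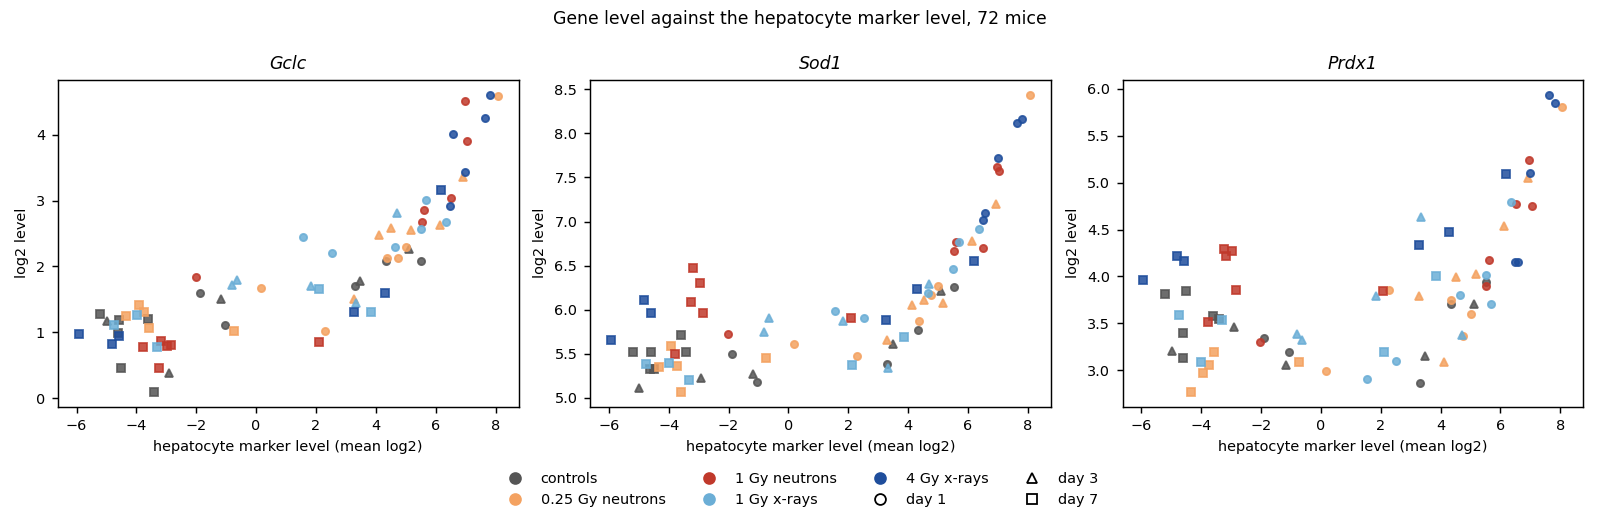
Log2 level of Gclc, Sod1 and Prdx1 (vertical axes) against the mean log2 level of 30 liver genes (horizontal axes) in the 72 mice, coloured by exposure and shaped by day. The 4 Gy x-ray mice of day 1 stand at the right of each panel, at list levels of 6.49 to 7.81, and the day 7 controls at the left, at -5.21 to -3.41.

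On day 7 liver transcripts were at -3.78 to 2.09 after 1 Gy neutrons, and only 1 of the 6 mice lay within the range of the controls. In these mice 5 to 30 of the 30 liver genes were well above background, against 8 to 17 in the controls. Spot intensities were also lower on these arrays, and levels are centred on each array's median. The mean level of the list was higher than in the controls by 2.00 (exact permutation test, p = 0.00866, adjusted p = 0.03). Levels of dim genes need not be comparable between these groups, and whether this difference is a higher amount of liver RNA was not tested. With the hepatocyte level as a covariate 7 members were called, as without it. That 1 mouse alone differed from the mean of the controls by 2.48 for Cat, 2.30 for Gclm, 1.84 for Gpx1, 1.43 for Sod2 and 1.38 for Hmox1, values of a single mouse with no replicate check. The x-ray groups of day 7 varied more, with hepatocyte levels of -4.75 to 3.85 after 1 Gy and -5.93 to 6.18 after 4 Gy. Tissue macrophage transcripts were higher after 4 Gy x-rays on that day, at 1.00 to 2.39 against -1.05 to 1.39 in the controls (exact permutation test, p = 0.00649, adjusted p = 0.0298). With their level as a covariate 2 of the 5 calls were kept, Nqo1 at 2.48 and Hmox1 at 1.34, and with the red cell level 0 of 5. On day 3 the red cell level was 2.65 to 3.66 after 1 Gy x-rays and 2.42 to 3.87 after 0.25 Gy neutrons against 1.99 to 2.53 in the controls, and with that level as a covariate neither Gclm, at 0.45 (SE 0.25), nor Nqo1, at 1.12 (SE 0.32), was called after 1 Gy x-rays.

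The size of the day 7 differences after 1 Gy neutrons depended on how arrays were put on a common scale. The counts of called members below stand without the share of all genes called under the same setting. On the spike-in control spots, RNA of known amount added to each sample, all differences moved by -2.10 from those under median centring. On this scale 2 members were called, both lower: Gclc at -2.21 and Prdx1 at -1.65. Under median centring they were at -0.11 and 0.45, so the move of the whole scale set these values. On the spike-in scale Cat was at 0.99, Gclm at 1.05, Gpx1 at 0.47, Prdx2 at 0.15, Nqo1 at 0.14, Sod2 at 0.09 and Hmox1 at -1.01. Of the 7 genes called under median centring, 0 were called on it. Spike-in centring moves all genes of an array by the same amount, so the order of the genes within an array is the same on both scales. With normexp background correction from the raw spot and local background intensities, limma called 0 of the 10, and the unadjusted p was below 0.05 for 5, among them Gclm at 1.61 (SE 0.41, adjusted p = 0.00978), Cat at 1.55 (SE 0.45) and Nqo1 at 0.88 (SE 0.21). Quantile normalization called 5, with Gclm at 2.45, Nqo1 at 2.17, Cat at 1.85, Sod2 at 1.21 and Hmox1 at 1.07, and left Prdx2 at 0.75 and Gpx1 at 0.49 without a call. Scan day as a block, in which 1 of the 6 irradiated mice shares the controls' day, called 4. The columns of the authors' table as named called 2, Gclm at 1.55 and Cat at 1.40, and leaving out the arrays it holds under another group called 7.

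**Figure D5:**
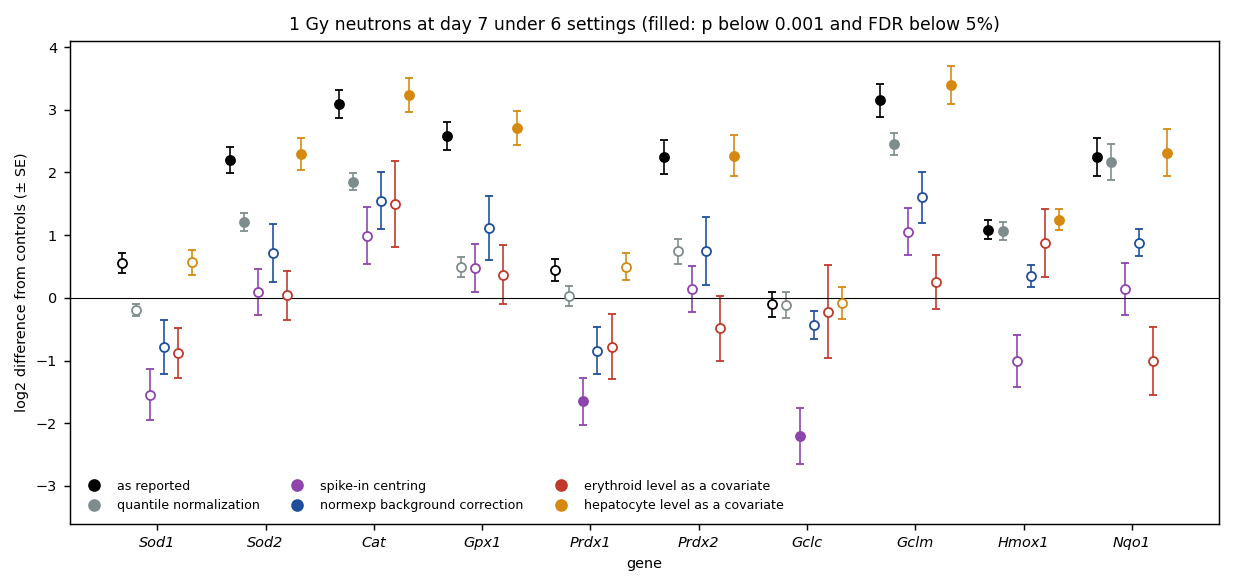
Log2 difference (± SE) of each gene between 1 Gy neutrons and controls on day 7 under 6 ways of processing (colours), with called genes filled. Cat, Gpx1, Gclm and Sod2 lie above 0 under all 6, with lowest values of 0.99, 0.37, 0.26 and 0.04. Prdx2, Hmox1 and Nqo1 each fall below 0 under at least 1.

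The other calls held to different degrees. On day 1 after 4 Gy x-rays, Sod1, Gclc and Prdx2 were called under spike-in centring, quantile normalization, normexp and the authors' table as named, where they were at 1.82, 1.51 and -1.59. In all x-ray comparisons with controls the scan day and the group cannot be told apart, since they share no scan day. On day 7 after 4 Gy x-rays Nqo1 was called in 30 of 31 alternatives, the exception being the red cell level as a covariate at 0.56 (SE 0.29). The 4 calls on day 7 after 1 Gy x-rays fell to 0 under spike-in centring, with the authors' table as named, and without the arrays it holds under another group. The call of Cat after 0.25 Gy neutrons on day 7 was lost in 22 of 30 alternatives, with a value of 0.13 under spike-in centring, and the 2 calls on day 3 were lost in 20 of 28 alternatives for Gclm, reversed in 1 more, and lost in 12 of 28 for Nqo1. All 5 controls of day 3 are held under another group in the authors' table, where Gclm was at -0.14.

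Related genes were counted in fixed lists. Of 29 tested genes of the wider glutathione and thioredoxin systems, 13 rose and 2 fell on day 1 after 4 Gy x-rays, with a median difference of 1.16 against -0.09 over all genes, of which 29.4% were called. The largest rises with separate groups were those of Msra, a methionine sulfoxide reductase, at 2.39 (SE 0.30), Prdx4, a peroxiredoxin of the endoplasmic reticulum, at 2.39 (SE 0.41) and Ccs, the copper chaperone of Sod1, at 2.06 (SE 0.38). On day 7 the counts were 9 higher and 6 lower after 1 Gy neutrons, where 36.2% of all genes were called, and 9 higher and 1 lower after 4 Gy x-rays, where 15.8% were. After 1 Gy neutrons the largest rises with separate groups were those of Glrx5, which serves iron-sulfur cluster assembly, at 2.62 (SE 0.22), Slc3a2, a chain of the cystine transporter, at 2.56 (SE 0.21) and Sqstm1, an autophagy adaptor, at 2.06 (SE 0.28). After 4 Gy x-rays they were those of Prdx3, the mitochondrial peroxiredoxin, at 1.65 (SE 0.19), Gss, glutathione synthetase, at 1.63 (SE 0.21) and Ccs at 1.55 (SE 0.16). On the same list 2 rose and 0 fell after 1 Gy x-rays on day 7 (3.74% of all genes called), and 0 were called after 0.25 Gy neutrons (0.547%).

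Of 7 tested genes of heme and iron handling, 4 rose and 0 fell after 1 Gy neutrons on day 7, where 18.4% of all genes rose, with a median of 2.02 against -0.05 over all genes. The lysosomal heme transporter Slc48a1 was at 2.54 (SE 0.20), biliverdin reductase Blvrb at 2.41 (SE 0.28) and ferritin light chain Ftl1 at 2.16 (SE 0.17). After 4 Gy x-rays on day 1 Slc48a1 fell by 2.25 (SE 0.21), and the iron exporter Slc40a1 rose by 2.12 (SE 0.29). Among 10 genes of NADPH supply, 3 rose and 1 fell on day 1 after 4 Gy x-rays, a share near the 29.4% of all genes called there. The isocitrate dehydrogenases Idh1 and Idh2 were at 2.26 (SE 0.33) and 1.73 (SE 0.28). On day 7 after 1 Gy neutrons 1 of the 10 rose and 1 fell, a share below the 36.2% of all genes called there. The pentose phosphate enzyme Taldo1 was at 1.58 (SE 0.23) and Pgls at -0.51 (SE 0.12). Among 9 regulators around Nrf2, Bach2, a repressor with high levels in B cells, fell by 3.40 (SE 0.23) after 4 Gy x-rays and by 2.24 (SE 0.22) after 1 Gy neutrons on day 1, by 1.89 (SE 0.16) after 1 Gy neutrons on day 7 and by 2.19 (SE 0.15) after 4 Gy x-rays on day 7, all groups in which 8 to 10 of the 10 tested B cell genes were lower. After 1 Gy x-rays on day 1, 8 of the 10 B cell genes were lower as well, with a median difference of -1.01 against -2.61 after 1 Gy neutrons. In that x-ray group 0 of the 9 regulators were called, where 6.45% of all genes were. A missed call does not show that Bach2 was unchanged. On that day Bach2 was at -1.38 (SE 0.22) for 1 Gy neutrons minus 1 Gy x-rays. The part of B cells in the fall of Bach2 was not tested. On day 1, 1 regulator rose and 1 fell after 1 Gy neutrons, where 16.3% of all genes were called. After 4 Gy x-rays 2 rose and 1 fell, where 29.4% were. On day 7 the counts were 2 and 1 (36.2%) and 1 and 1 (15.8%) in the same order. The small Maf protein Mafg rose by 1.59 (SE 0.21) after 1 Gy neutrons on day 7. The 6 subunit genes of the phagocyte NADPH oxidase were called in 0 of the 10 comparisons with controls by limma.

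As a description over the 13 group means, with no test and with shared controls, scaling and cell makeup among the points, the 10 genes fell into related pairs. Pearson's r was 0.95 between Gpx1 and Prdx2, 0.941 between Sod2 and Gclm, 0.929 between Sod2 and Nqo1, 0.908 between Cat and Gpx1, 0.908 between Sod1 and Prdx1 and 0.89 between Sod1 and Gclc. The subunits Gclc and Gclm had an r of -0.545, and Prdx2 and Gclc -0.819. The named genes most like single members were Hnmt for Sod1 (0.983), Cox6a1 for Sod2 (0.99), Ost4 for Cat (0.973), Spop for Gpx1 (0.991), Uqcrq for Prdx1 (0.968), 5033425G24Rik for Prdx2 (0.992), Fads2 for Gclc (0.992), LOC102643165 for Gclm (0.984), Mapk13 for Hmox1 (0.937) and Rexo2 for Nqo1 (0.959).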

How the data were processed

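Blood RNA of 72 mice in 13 groups, named by the sample labels, was measured on one-colour arrays. The scanner software, Agilent Feature Extraction 12.0.2 per the submitters' processing notes, had background-corrected the deposited spot intensity, and the deposited files also flag spots that are outliers or not well above background. The authors' processed table holds log2 values and was used only as an alternative, since 60 of its 72 columns follow another sample's array. Here control spots and outlier flags were left out, spots of a probe were averaged, log2 was taken, and the median over detected probes was subtracted array by array. Detection required that under 25% of a probe's spots, over the 56 arrays of days 1 and 7, carried an outlier or a dim flag, and a gene was represented by its brightest probe.

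Comparisons were fitted with limma 3.58.1 in R 4.3.3 on the groups compared, without a block. A call needed p below 0.001 together with an FDR (Benjamini-Hochberg) under 5%. Day 7 minus day 1 effects were tested as interactions. The random variance test named in the study's methods was an alternative. All 10 genes are named, and the 3 genes most like each over the group means were listed, of which the report gives the highest with a gene name, together with up to 3 genes per related list with the largest differences among called genes with separate groups. The genes, lists and tests were chosen with earlier results of these data known. The fits were tested on simulated data. The number of arrays limits the precision, and limma's p-values set a difference against the spread between mice of a group. They do not cover a difference between scan days. Alternatives covered scale, background correction, filters, probes, scan day, slide, replicate number, marker levels, single mice and the authors' table. Those with tissue macrophage levels, without arrays high in liver transcripts, with the authors' table as its columns are named, and without the arrays it holds under another group were chosen after seeing the data.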

Additional observations from a re-analysis of the deposited data

Results flagged for a closer look

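Within each of 130 combinations of a gene and a group, 14 held a mouse far from the others by Dixon's criterion, where chance gives about 1 in 20, or 6. In the 0.25 Gy neutron group of day 1, the same mouse, replicate 5, was the highest for Sod1 at 8.44, Sod2 at 5.73, Prdx1 at 5.81 and Gclc at 4.58, and its hepatocyte level of 8.07 was the highest of the group. The part of liver RNA in these values was not tested. Cat was at 1.68 in 1 mouse of the 1 Gy x-ray group of day 3, against 5.33 in the next mouse, and at 7.44 in 1 mouse of the 0.25 Gy neutron group of day 3. Gclc stood apart at 3.16 in 1 mouse after 4 Gy x-rays on day 7, at 2.81 in 1 mouse after 1 Gy x-rays on day 3 and at 0.47 in 1 mouse after 1 Gy neutrons on day 7. Nqo1 was low in 1 mouse after 1 Gy neutrons on day 1, at -1.50, and in 1 mouse after 4 Gy x-rays on day 1, at -0.76. Prdx2 was low in 1 control of day 3, at 6.43, and in 1 control of day 7, at 6.83. Sod2 was low in 1 mouse after 0.25 Gy neutrons on day 7, at 4.93.

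The effect of an exposure differed between day 7 and day 1 in 14 cases by limma's test of the difference. After 1 Gy neutrons these were Sod2 at 2.39, Cat at 3.02, Gpx1 at 3.41, Prdx2 at 3.15, Gclm at 3.39 and Nqo1 at 1.73 on the log2 scale. After 1 Gy x-rays they were Sod2 at 1.26, Cat at 1.67, Gpx1 at 1.81, Prdx2 at 1.66 and Gclm at 2.63, and after 4 Gy x-rays Sod1 at -1.42, Prdx2 at 1.76 and Gclm at 1.92.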

How the results depend on the processing

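The 10 genes gave 2620 gene values under all alternatives other than leaving out 1 mouse at a time. Of these, 2343 kept their side of the threshold, 203 lost a call, 48 gained one and 26 reversed. Direction was compared only for genes called in at least 1 of the 2 fits, so genes called in neither count as kept whatever their direction. Numbers of called genes are given against same-day controls unless 2 exposures or a day difference (day 7 effect minus day 1 effect) are named, and the causes of the changes were not tested. The share of all genes called under each alternative, or with 1 mouse left out, is not given beside the numbers here or above. A changed number is therefore not a result about the members alone. With 75th percentile centring 1 was called after 1 Gy neutrons on day 1, 1 after 0.25 Gy neutrons on day 3 and 1 after 1 Gy x-rays on day 3. With quantile normalization the numbers were 1 after 1 Gy x-rays on day 1, 1 and 1 in the same 2 groups of day 3, 0 after 0.25 Gy neutrons on day 7 and 1 for neutrons minus x-rays at 1 Gy and day 7, and against 4 Gy x-rays Gpx1 was at -0.12 and Prdx2 at -0.12. With spike-in centring they were 0 after 1 Gy x-rays on day 3, 2 for 1 Gy neutrons and 0 for 1 Gy x-rays on day 7, 1, 3 and 0 for the day differences of 0.25 Gy neutrons, 1 Gy neutrons and 1 Gy x-rays, and 0 for neutrons minus x-rays at 1 Gy and day 7. There Prdx1 was at -1.65 and Hmox1 at -1.01 after 1 Gy neutrons on day 7, Sod2 at -0.21 and Gpx1 at -0.075 after 1 Gy x-rays on day 7, Nqo1 at -0.65 for the neutron day difference, and Sod2 at -1.05, Prdx2 at -0.43, Gclm at -0.46 and Nqo1 at -1.87 for neutrons minus 4 Gy x-rays. With normexp they were 0 after 1 Gy x-rays on day 3, 0, 0, 1 and 1 on day 7 in the 0.25 Gy neutron, 1 Gy neutron, 1 Gy x-ray and 4 Gy x-ray groups, 0, 1 and 0 for the day differences of the last 3, and 1 and 0 for neutrons minus 1 Gy and 4 Gy x-rays on day 7, with Sod2 at -0.089, Gpx1 at -0.066, Prdx2 at -0.41 and Gclm at -0.18 against 1 Gy x-rays.

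With dim spots missing, 1 was called after 1 Gy x-rays on day 3, 0 after 0.25 Gy neutrons on day 7 and 3 for neutrons minus x-rays at 1 Gy and day 7. Without a detection filter 0 were called after 1 Gy x-rays on day 3, with the variation filter 0 after 0.25 Gy neutrons on day 7, and with the mean of a gene's probes 1 after 0.25 Gy neutrons on day 3. Scan day was a random block where a fixed block could not be estimated, as in x-ray comparisons with controls. Such a fit cannot take out a scan day difference between the groups. It gave 5 after 4 Gy x-rays on day 1 and 3 for the 1 Gy x-ray day difference. As a fixed block scan day gave 4 after 1 Gy neutrons on day 7 and 2 for neutrons minus x-rays at 1 Gy. Scan day could not be fitted for 0.25 Gy neutrons on day 1 or day 7 or for 4 Gy x-rays on day 7. Slide as a block gave 2 after 1 Gy neutrons on day 1 and 0 after 0.25 Gy neutrons on day 7, and all 13 groups in 1 fit gave 2 and 0 there and 1 after 0.25 Gy neutrons on day 3. The labels' replicate numbers do not pair the mice: 19 of 52 pairs correlated above 0.1 (range -0.527 to 0.64), in 0 of 10 comparisons all pairs. With the replicate block 1 was called after 1 Gy x-rays on day 3, 0 after 0.25 Gy neutrons on day 7, 3 for the 1 Gy x-ray day difference and 1 for neutrons minus x-rays at 1 Gy and day 7.

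With the hepatocyte level as a covariate 0 were called in the 4 Gy x-ray group of day 1, 0 in the 1 Gy x-ray group of day 3 and 0 in the 0.25 Gy neutron group of day 7. With the red cell level the numbers were 0 after 4 Gy x-rays on day 1, 1 after 1 Gy x-rays on day 3, 0 in all 4 groups of day 7, 0, 1 and 0 for the day differences of the 1 Gy neutron, 1 Gy x-ray and 4 Gy x-ray groups, and 0 and 2 for neutrons minus 1 Gy and 4 Gy x-rays on day 7. There Prdx2 was at -0.49 and Nqo1 at -1.0 after 1 Gy neutrons on day 7, Nqo1 at -0.89 for the neutron day difference, Cat at -0.41, Gpx1 at -0.050, Prdx2 at -0.61 and Nqo1 at -1.71 for that of 1 Gy x-rays, Prdx2 at -0.048 and Gclm at -0.73 for that of 4 Gy x-rays, and Gclm at -0.22 for neutrons minus 1 Gy x-rays. With the tissue macrophage level 0 were called after 4 Gy x-rays on day 1, 1 after 1 Gy x-rays on day 3, and 0 and 2 in the 0.25 Gy neutron and 4 Gy x-ray groups of day 7. Without arrays high in liver transcripts 0 were called after 0.25 Gy neutrons on day 7. The authors' table as named called 0 after 1 Gy x-rays on day 3, with Gclm at -0.14, and 0, 2, 0 and 3 in the 4 groups of day 7, and without the arrays it holds under another group 0 were called in the 0.25 Gy neutron and 0 in the 1 Gy x-ray group of day 7.

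Leaving out 1 mouse at a time gave 0 to 0 called on day 1 after 0.25 Gy neutrons, 0 to 3 after 1 Gy neutrons (3 without replicate 4, 1 without replicate 3), 0 to 1 after 1 Gy x-rays (1 without replicate 3) and 3 to 4 after 4 Gy x-rays. On day 3 it gave 0 to 1 after 0.25 Gy neutrons (1 without replicate 1) and 0 to 2 after 1 Gy x-rays, 0 without irradiated replicate 2 or 4 or control 2, 3, 4 or 5 and 1 without irradiated replicate 3 or 5 or control 1. On day 7 it gave 0 to 2 after 0.25 Gy neutrons, 2 without control 1 or neutron replicate 1 and 0 without control 3, 4, 5 or 6 or neutron replicate 2, 3, 4 or 5. It gave 7 to 8 after 1 Gy neutrons, 3 to 4 after 1 Gy x-rays and 4 to 6 after 4 Gy x-rays. The day differences gave 0 to 0, 5 to 7, 4 to 5 and 3 to 4 in the same order of exposures, and neutrons minus 1 Gy and 4 Gy x-rays gave 0 to 1 (1 without neutron replicate 3) and 0 to 0 on day 1 and 5 to 7 and 5 to 5 on day 7.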
